A study of Mus musculus with 2 samples.

Results

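Hepatokines are proteins that the liver releases into the blood and that act on other tissues or on the liver itself. The 9 genes described here, *Fgf21*, *Gdf15*, *Inhbe*, *Angptl4*, *Angptl8*, *Ahsg*, *Fetub*, *Rbp4* and *Lect2*, were taken by their symbols from a table of 45777 genes, and all 9 were present and passed the filter of at least 10 counts in at least 1 library, as did 15857 genes in all. The tissue was liver of C57BL/6 mice (C57BL/6 N in the study's methods) on a high-fat diet (HFD), started at 7 weeks of age and kept up for 18 weeks. In week 13 of the diet, 5 weeks before the end, the mice received by retro-orbital injection an adeno-associated virus (AAV) that carried either the green fluorescent protein GFP, as the control, or Wee1-AS, a long noncoding RNA. Both groups thus carried a viral vector and ate the same diet, and no group on a normal diet was analysed here. The AAV-Wee1-AS vector used the CMV promoter, which is not specific to hepatocytes, so other transduced liver cells can express the insert as well. The level of Wee1-AS itself was not analysed here, and the sex of these mice is not given in the sources used here.

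Each group was 1 poly(A) RNA sequencing library, and how many mice went into it is not given in the sources used here. No difference below therefore has a replicate check, no test was possible, and "higher" and "lower" compare 2 libraries rather than 2 treatments. The libraries held 55466182 (AAV-GFP) and 48079335 (AAV-Wee1-AS) estimated counts. A log2 ratio is the AAV-Wee1-AS level over the AAV-GFP level after scaling for library size and composition, so a negative value means less RNA in the AAV-Wee1-AS library. Its 95% interval is an exact Clopper-Pearson interval that covers counting error only, not the spread between mice. Levels are compared between genes in TPM, a unit that divides by transcript length and sets every library to the same total. In whole liver, fewer cells of a type and less RNA per cell cannot be told apart.

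The tissue label held against its markers. The 9 hepatocyte markers found by symbol in the table summed to 68276 TPM with AAV-GFP and 79854 TPM with AAV-Wee1-AS, and all 9 were detected in both. *Alb* alone went from 37459 to 53289 TPM, 5 of the 9 had a negative log2 ratio (median -0.050), and *Apob* (1.83) and *Cps1* (1.22) were more than 2-fold higher, though at 0.21 and 0.43 with the trends of GC content and transcript length removed. The summed markers of other liver cells were 497 TPM with AAV-GFP against 400 TPM with AAV-Wee1-AS for 8 macrophage genes, 120 against 121 for 8 stellate cell genes, 172 against 135 for 7 endothelial genes and 44.1 against 37.9 for 6 cholangiocyte genes. Single markers differed more than these sums: of the macrophage genes *Vsig4* (log2 ratio 1.53) and *Timd4* (1.42) were more than 2-fold higher while *Cd68* (-0.86) and *Cd5l* (-0.74) were lower, and of the stellate cell genes *Lrat* (1.48) was higher while *Col1a1* (-2.30) and *Pdgfrb* (-1.08) were lower. The median log2 ratios of these lists were -0.015 and -0.57. With the trends removed *Col1a1* (-2.00) alone of these genes lay past 2-fold, *Vsig4*, *Timd4*, *Lrat* and *Pdgfrb* being at 0.98, 0.77, 0.047 and -0.91. Of 7 adipocyte markers, 3 were at 0 counts in both libraries and *Adipoq* had 2 counts in each, while *Cidec*, which fatty hepatocytes also express, had 7683 and 1236 counts and *Cfd* 492 and 431. Of 7 exocrine pancreas and 6 skeletal muscle markers, 6 and 5 were at 0 counts in both. The remaining pancreas marker, *Cela1*, had 616 counts with AAV-GFP and 741 with AAV-Wee1-AS. The remaining muscle marker, *Mylpf*, had 20 and 2. The part of cell composition in the ratios below was not tested.

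Hepatokines differ in what sets their expression. FGF21 and GDF15 are hormones released under nutrient and cell stress. Their genes are known targets of the integrated stress response, in which phosphorylation of eIF2α raises translation of the transcription factor ATF4, and *Fgf21* is also activated by PPARα on fasting and by ChREBP on carbohydrate feeding. The angiopoietin-like proteins ANGPTL4 and ANGPTL8 act on lipoprotein lipase and so on how triglyceride is shared between tissues. The fetuins, RBP4 and LECT2 are plasma proteins made largely by hepatocytes, and their blood levels have been linked to obesity and insulin resistance.

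To show the DNA at which these genes start, 5 promoters are printed. They are those of *Fgf21* and *Gdf15*, the pair with the lowest ratios between the libraries, and of *Inhbe* and *Angptl8*, which hold the same 8-letter element as *Fgf21* but had ratios closer to 0. These ratios are those before any trend of GC content or length was removed. Each window runs from 250 bases before to 50 bases after a start site of RefSeq (mouse build GRCm38.p6, the same coordinates as mm10), on the strand of the gene, 5′ to 3′. Capitals mark matches on either strand to TGATGNAA, the composite element bound by ATF4 with a C/EBP protein, to CACGTG, the palindromic E-box, and to a nuclear receptor repeat, AGGNCA followed after 1 base by AGGNCA again. The windows lie at chr7:45615441-45615740 (*Fgf21*, minus strand), chr8:70632046-70632345 (*Gdf15* variant 1, minus strand), chr8:70632407-70632706 (*Gdf15* variant 2, minus strand), chr10:127351799-127352098 (*Inhbe*, minus strand) and chr9:21835260-21835559 (*Angptl8*, plus strand).
Fgf21: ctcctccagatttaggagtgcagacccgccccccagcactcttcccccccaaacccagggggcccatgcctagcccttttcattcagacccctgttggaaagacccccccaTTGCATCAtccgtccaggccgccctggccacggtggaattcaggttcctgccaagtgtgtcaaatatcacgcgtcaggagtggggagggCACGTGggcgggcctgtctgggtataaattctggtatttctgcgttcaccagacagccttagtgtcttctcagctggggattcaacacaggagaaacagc
Gdf15 variant 1: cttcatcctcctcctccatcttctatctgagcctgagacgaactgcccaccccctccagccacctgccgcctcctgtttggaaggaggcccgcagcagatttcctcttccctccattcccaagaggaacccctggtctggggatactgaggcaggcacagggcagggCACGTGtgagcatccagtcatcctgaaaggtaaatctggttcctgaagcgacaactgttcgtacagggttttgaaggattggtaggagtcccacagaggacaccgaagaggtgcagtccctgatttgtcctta
Gdf15 variant 2: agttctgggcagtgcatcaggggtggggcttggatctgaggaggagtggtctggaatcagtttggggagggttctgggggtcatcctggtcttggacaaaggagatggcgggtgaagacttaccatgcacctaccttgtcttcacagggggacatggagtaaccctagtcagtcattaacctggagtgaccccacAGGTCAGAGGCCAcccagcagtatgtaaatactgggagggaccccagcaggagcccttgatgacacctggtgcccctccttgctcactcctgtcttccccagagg
Inhbe: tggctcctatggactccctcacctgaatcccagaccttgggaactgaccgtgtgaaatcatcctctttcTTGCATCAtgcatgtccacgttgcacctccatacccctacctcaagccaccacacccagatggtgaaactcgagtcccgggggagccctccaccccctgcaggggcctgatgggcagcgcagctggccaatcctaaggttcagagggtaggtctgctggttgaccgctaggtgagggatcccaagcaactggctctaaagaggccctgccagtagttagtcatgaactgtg
Angptl8: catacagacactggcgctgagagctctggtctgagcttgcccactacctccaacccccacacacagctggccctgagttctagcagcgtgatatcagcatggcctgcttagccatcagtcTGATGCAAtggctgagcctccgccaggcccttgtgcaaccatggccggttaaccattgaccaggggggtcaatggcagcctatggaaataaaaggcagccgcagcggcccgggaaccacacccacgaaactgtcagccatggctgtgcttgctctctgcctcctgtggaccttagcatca

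In the *Fgf21* window the composite element, read on the opposite strand as TTGCATCA, began at base -139 from the start site and the E-box at base -50. The same 8 letters began at base -181 of *Inhbe*, and TGATGCAA began at base -130 of *Angptl8*. A further match, TGATGAAA, began at base -76 of the upstream start of *Rbp4*. Among the 8 members with an entry in the RefSeq promoter table, 4 thus held the composite element, in 4 of their 11 windows, against 3.97% of 32851 mouse windows of the same length. The E-box was found in *Fgf21* and at the variant 1 start of *Gdf15* (base -83), against 7.15% of all windows. The nuclear receptor repeat was found at base -55 of the variant 2 start of *Gdf15*, against 0.381% of all windows. A TATA box, TATAAA, searched on both strands as well and not in capitals, lay at base -28 of *Fgf21*, base -31 of *Fetub* and base -28 of the downstream start of *Rbp4*, and 13.6% of all windows held one. None of these matches overlapped another. The motifs were picked after the sequences had been seen, and a match describes letters, not a bound site.

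The 9 genes spanned a wide range of levels, and their order was the same in both libraries: *Ahsg*, *Rbp4*, *Fetub*, *Lect2*, *Angptl4*, *Inhbe*, *Angptl8*, *Gdf15* and *Fgf21*. *Ahsg* and *Rbp4* made up 93.7% of the summed hepatokine TPM with AAV-GFP and 92.3% with AAV-Wee1-AS. Together the 9 genes held 1.41% of all TPM with AAV-GFP and 1.23% with AAV-Wee1-AS.

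**Figure D1:**
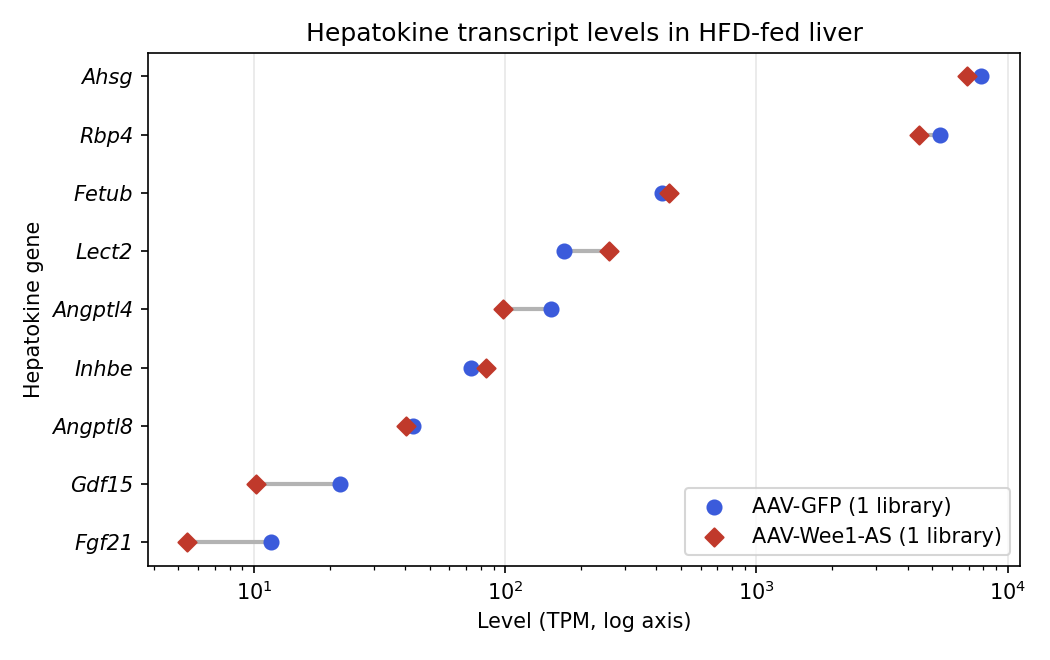
Level of each hepatokine gene in TPM (log axis) in the AAV-GFP and AAV-Wee1-AS libraries, 1 point per library. The levels run from 7822 and 6877 TPM for *Ahsg* down to 11.7 and 5.44 TPM for *Fgf21*.

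Of the 9 genes, 6 were lower and 3 higher with AAV-Wee1-AS, and the median log2 ratio was -0.15, against -0.0020 over all 15857 genes. Of all genes, 7942 had a negative and 7915 a positive log2 ratio. The split of the 9 genes turned when the trends of GC content and length were removed, as described below. Then 6 of the 9 were higher and their median was 0.49, against -0.0095 over the 14995 genes with a transcript sequence. Without that removal only *Fgf21* and *Gdf15* lay past 2-fold, both lower. That was 2 of 9 genes (22.2%), where 31.0% of all genes lay past 2-fold in either direction (8.43% lower, 22.5% higher). Of the 11565 genes that reached 100 counts in either library, 27.6% lay past 2-fold. No hepatokine gene had a counting interval wholly past 2-fold, as 19.9% of all genes did (3.61% on the lower side). The interval left out a ratio of 1 for 8 of 9 genes, all but *Angptl8*, where it did so for 77.0% of all genes. The shares of hepatokine genes past 2-fold rest on 2 genes. With only 9 genes, nothing is read from any of these shares about the hepatokines as a group.

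**Figure D2:**
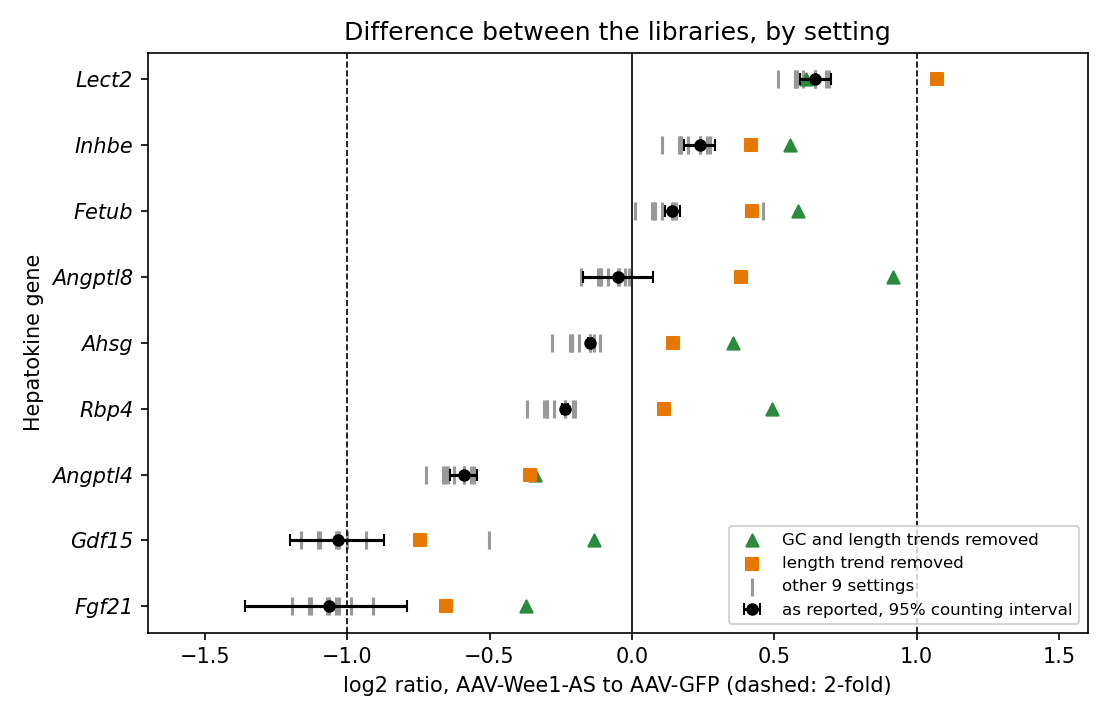
Log2 ratio between the libraries (AAV-Wee1-AS over AAV-GFP) for each hepatokine gene, with the 95% counting interval as bars. The values run from -1.06 for *Fgf21* to 0.64 for *Lect2*, and the interval of *Angptl8* spans 0.

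*Fgf21* encodes fibroblast growth factor 21, an endocrine hormone that signals through an FGF receptor with the coreceptor β-Klotho. The gene lies at chr7:45613890-45615490 (mm10, minus strand) with 3 exons, and the table gives it 1 transcript. It had 367 counts with AAV-GFP and 144 with AAV-Wee1-AS, or 11.7 and 5.44 TPM. The AAV-Wee1-AS library was the lower one, at 0.479 times the AAV-GFP level (log2 ratio -1.06, 95% interval -1.36 to -0.79). Among all genes tested, 7.38% had a lower ratio. With the trends of GC content and length removed the log2 ratio was -0.37. By level it ranked 4836th of all genes with AAV-GFP and 7252nd with AAV-Wee1-AS.

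*Gdf15* encodes growth differentiation factor 15, a distant TGF-β family member that reduces food intake through the brainstem receptor GFRAL. It lies at chr8:70629393-70632470 (minus strand) with 3 exons. Its counts were 1050 with AAV-GFP and 423 with AAV-Wee1-AS, or 21.96 and 10.18 TPM. Again the AAV-Wee1-AS library was the lower one, with a log2 ratio of -1.03 (-1.20 to -0.87), and 7.81% of all genes had a lower ratio. With the trends of GC content and length removed, the log2 ratio was -0.13 and its interval spanned 0. For *Fgf21* and *Gdf15* alike, a ratio just short of 2-fold lies inside the counting interval.

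The 3 annotated transcripts of *Gdf15* were not lower to the same degree. Variant 1 starts at position 70632095, while variant 2 and the predicted variant X1 start 361 and 375 bases upstream. Variant 1 had 499 counts with AAV-GFP and 285 with AAV-Wee1-AS (log2 ratio -0.53, -0.75 to -0.32). Variant 2 had 336 and 66 counts (-2.04, -2.47 to -1.69), and variant X1 had 215 and 72 (-1.28, -1.71 to -0.91). Both transcripts from the upstream starts were therefore lower by more than the variant from the downstream start, with intervals that did not overlap that of variant 1. The share of the gene's counts given to variant 1 was 47.5% with AAV-GFP (exact 95% interval 44.5% to 50.6%) and 67.4% with AAV-Wee1-AS (62.7% to 71.8%). The transcripts share most of their sequence, so these counts depend on how the quantification divided shared reads, and the intervals do not cover that step. The variant 2 window printed above holds the nuclear receptor repeat and the variant 1 window the E-box.

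**Figure D3:**
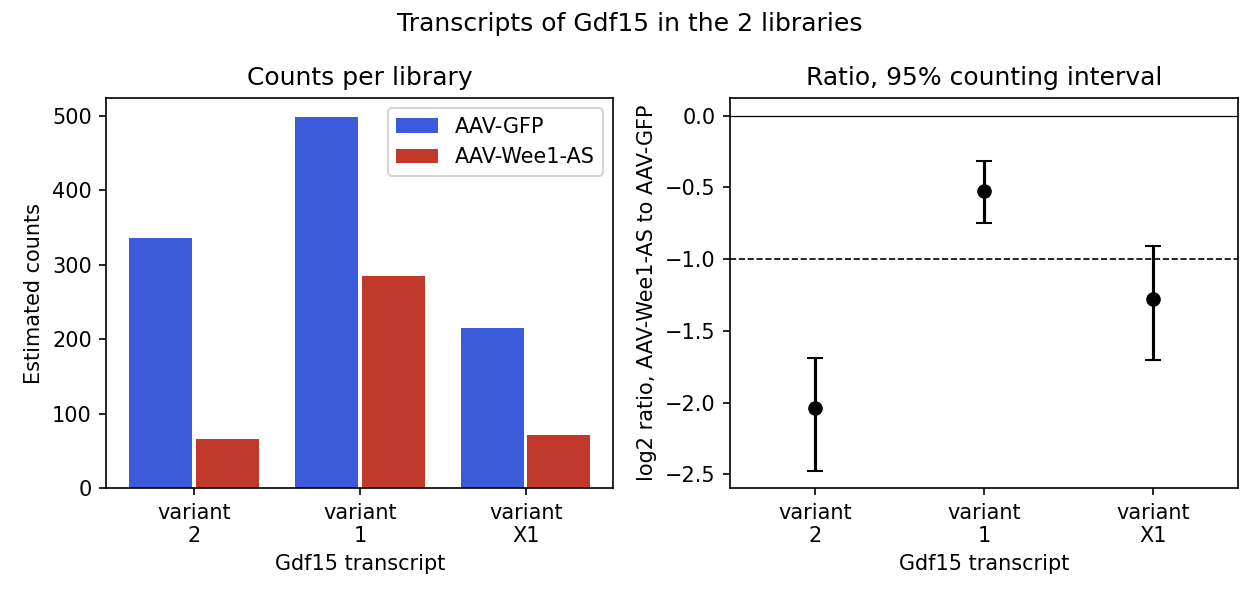
Estimated counts of the 3 *Gdf15* transcripts in each library (left, bars from 0) and their log2 ratios with 95% counting intervals (right, dashed line at 2-fold lower). Variant 2 went with the lowest ratio, -2.04, and variant 1 with the highest, -0.53.

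*Inhbe* encodes the βE subunit of the activins, ligands of the TGF-β family that act on activin receptors, and in the liver it is made by hepatocytes. It lies at chr10:127349402-127351848 (minus strand) with 2 exons. It had 5334 counts with AAV-GFP and 5188 with AAV-Wee1-AS, or 73.2 and 84.1 TPM. Corrected for library size it was slightly higher with AAV-Wee1-AS (log2 ratio 0.24, 0.18 to 0.29). Its paralog *Inhbc*, the βC subunit gene 4473 bases away, had 5536 and 3789 counts and a log2 ratio of -0.27. With the trends of GC content and transcript length removed, as described below, both lay above 0, *Inhbe* at 0.55 and *Inhbc* at 0.26.

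*Angptl4* encodes an inhibitor of lipoprotein lipase that is induced by fasting and fatty acids. It lies at chr17:33774900-33781575 (minus strand) with 7 exons. It had 9498 counts with AAV-GFP and 5200 with AAV-Wee1-AS, or 152 and 97.9 TPM, and was lower with AAV-Wee1-AS at 0.664 times the AAV-GFP level (log2 ratio -0.59, -0.64 to -0.54). After *Fgf21* and *Gdf15* it had the lowest ratio of the 9 genes with no trend removed.

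*Angptl8* encodes a small insulin-responsive protein that acts on lipoprotein lipase. It lies at chr9:21835510-21837347 (plus strand) with 4 exons, inside an intron of *Dock6* on the opposite strand. Its 1219 counts with AAV-GFP and 973 with AAV-Wee1-AS, or 42.8 and 40.3 TPM, gave a log2 ratio of -0.047 (-0.17 to 0.075). With the scaling used throughout and no trend removal the difference was within counting error, and the interval runs from 0.889 to 1.05 times the AAV-GFP level. The log2 ratio was -0.18 with upper quartile scaling. With the length trend removed it was 0.38, and with GC content and length removed it was 0.92 (0.79 to 1.04). *Dock6* itself had 1275 and 803 counts (log2 ratio -0.39). Whether counting used the strand of the reads is not given in the sources used here.

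The fetuins are cystatin-family plasma glycoproteins. *Ahsg* encodes fetuin-A, an inhibitor of calcification and of the insulin receptor, and *Fetub* encodes fetuin-B. The genes sit on the same strand with 18930 bases between them, *Ahsg* at chr16:22892015-22899451 with 7 exons and *Fetub* at chr16:22918382-22939768 with 9 exons. *Ahsg* had 388772 counts with AAV-GFP and 289551 with AAV-Wee1-AS, or 7822 and 6877 TPM (log2 ratio -0.15, -0.15 to -0.14). *Fetub* had 21805 and 19851 counts, or 419 and 451 TPM (log2 ratio 0.14, 0.11 to 0.17). The levels with AAV-Wee1-AS were 0.903 times (*Ahsg*) and 1.10 times (*Fetub*) those with AAV-GFP. With 1 library per group such small ratios have nothing to be measured against but counting error. After removal of the trends of GC content and length, both genes were higher with AAV-Wee1-AS. The log2 ratios were then 0.36 for *Ahsg*, which changed sign, and 0.58 for *Fetub*.

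Most fetuin counts came from 1 transcript of each gene. For *Ahsg*, variant 1 took 97.0% of the counts with AAV-GFP and 96.4% with AAV-Wee1-AS, while its noncoding transcript, with 1366 and 1612 counts, was higher with AAV-Wee1-AS (log2 ratio 0.52, 0.41 to 0.62). For *Fetub*, a predicted transcript took 96.0% and 95.1%. The 3 curated *Fetub* transcripts alone gave a log2 ratio of 0.46, and of these the variant with 50 counts with AAV-GFP and 95 with AAV-Wee1-AS had the highest ratio, 1.17 (0.69 to 1.73).

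*Rbp4* encodes retinol-binding protein 4, which carries retinol from the liver in a complex with transthyretin. It lies at chr19:38116620-38125321 (minus strand) with 6 exons. It had 168759 counts with AAV-GFP and 118240 with AAV-Wee1-AS, or 5372 and 4443 TPM, and was lower with AAV-Wee1-AS (log2 ratio -0.24, -0.25 to -0.22). Its 2 transcripts had nearly the same ratio, -0.23 and -0.26. *Ttr*, the gene of its partner transthyretin, had 13404 and 8510 TPM and a log2 ratio of -0.61. With the trends of GC content and length removed the partners lay on opposite sides of 0, *Rbp4* at 0.49 and *Ttr* at -0.89.

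*Lect2* encodes leukocyte cell-derived chemotaxin 2, a protein secreted by hepatocytes that binds the receptors MET and TIE1. It lies at chr13:56529734-56548559 (minus strand) with 5 exons and overlaps an exon of *Fbxl21* on the opposite strand, which had only 44 counts with AAV-GFP and 99 with AAV-Wee1-AS. *Lect2* had 4924 counts with AAV-GFP and 6348 with AAV-Wee1-AS, or 171 and 260 TPM. It was higher with AAV-Wee1-AS at 1.56 times the AAV-GFP level (log2 ratio 0.64, 0.59 to 0.70). That was the highest ratio of the 9 genes with no trend removed. With the trends of GC content and length removed, *Angptl8* was highest, at 0.92 against 0.61 for *Lect2*. Its main transcript took 97.9% and 98.7% of its counts.

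The ratio between the libraries moved with base composition over the whole table. Across 14995 genes with a transcript sequence, the log2 ratio and the GC content of the longest transcript had a Spearman correlation of -0.67, a description across genes of 1 pair of libraries. *Fgf21* (54.5% GC), *Gdf15* (61.3%), *Angptl8* (60.6%) and *Rbp4* (55.6%) are among the GC-richer genes, and *Lect2* (47.9%) has the lowest GC content of the 9. When all genes were split into 10 groups of rising GC content, the median log2 ratio was -0.68 in the group of *Gdf15* and *Angptl8*, -0.48 in that of *Fgf21* and 0.50 in that of *Lect2*. *Fgf21* and *Gdf15* were thus below the median of genes like them in GC content, and *Angptl8* above it.

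With the trends of GC content and transcript length removed, the log2 ratio was -0.37 for *Fgf21* (-0.67 to -0.099), -0.13 for *Gdf15* (-0.30 to 0.029) and -0.34 for *Angptl4* (-0.39 to -0.29). *Lect2* stayed at 0.61. *Fetub* went to 0.58 and *Inhbe* to 0.55, and *Angptl8* (0.92), *Rbp4* (0.49) and *Ahsg* (0.36) changed sign. None of the 9 genes then lay past 2-fold, where 14.8% of all genes did. The median of the 9 genes was 0.49, against -0.0095 over all genes in that setting, and 6 of the 9 were higher with AAV-Wee1-AS. *Fgf21*, *Gdf15* and *Angptl4* were the lower ones and *Lect2*, *Inhbe* and *Fetub* the higher ones both before and after. Library preparation and treatment cannot be told apart as the source of the GC trend, since each group is 1 library.

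**Figure D4:**
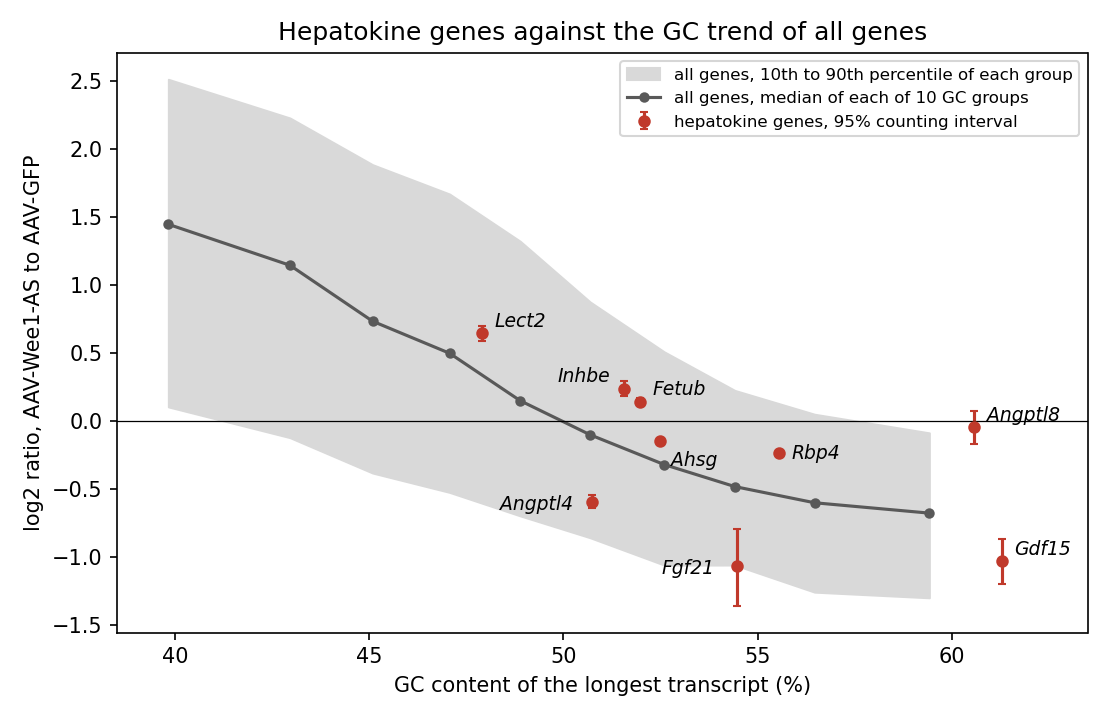
Log2 ratio against GC content of the longest transcript, with hepatokine genes as red points (95% counting interval), all genes as the median of 10 GC groups (line) and their 10th to 90th percentile (band). *Lect2*, *Inhbe*, *Fetub*, *Ahsg*, *Rbp4* and *Angptl8* lie above the median of their GC group, and *Angptl4*, *Fgf21* and *Gdf15* below it.

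The receptors and partners of the hepatokines were measured for 23 genes, of which 19 passed the filter. *Gfral*, *Ret*, *Acvr1c* and *Stra6* had 0 counts in both libraries, where a count of 0 allows up to 3. Of the 19, 3 were more than 2-fold higher and 1 more than 2-fold lower, 21.1% in all against 31.0% of all genes. The median was -0.25, or -0.018 with the GC and length trends removed. The 3 higher genes were *Met*, the receptor for HGF that LECT2 also binds, *Acvr2a*, an activin receptor, and *Insr*, the insulin receptor. *Met* had 1001 and 4252 counts (log2 ratio 2.36, 2.26 to 2.47). *Acvr2a* had 203 and 521 counts (1.63) and *Insr* 2262 and 5250 (1.49). With the GC and length trends removed these 3 values were 1.31, 0.032 and 0.40. The lower gene, named after its value was seen, was the activin antagonist *Fstl3*, with 26 and 7 counts (-1.40, or -0.65 with the trends removed). *Tie1*, the other LECT2 receptor and also named after its value was seen, had 1710 and 807 counts (-0.80, or -0.31 with the trends removed). The most abundant, the hepatic lipase gene *Lipc*, the RBP4 receptor *Stra6l* and the lipoprotein lipase anchor *Gpihbp1*, had log2 ratios of -0.41, -0.43 and -0.53. With the trends removed *Stra6l* was at -1.03, past 2-fold lower, *Gpihbp1* turned to 0.14, and *Lpl*, the lipase gene itself, named after its values were seen, went from 0.044 to -1.01.

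Of 15 genes of the integrated stress response, 12 had a negative log2 ratio, as did 7942 of all 15857 genes, and the median was -0.69. Past 2-fold were 4 lower and 1 higher, or 26.7% lower against 8.43% of all genes and 33.3% in either direction against 31.0%. *Atf3*, a stress-induced repressor, had 410 counts with AAV-GFP and 91 with AAV-Wee1-AS (log2 ratio -1.87, -2.24 to -1.56). *Trib3*, a pseudokinase induced by ATF4, had 694 and 185 (-1.62), and *Atf5*, a transcription factor of the same pathway and the most abundant of the list, had 32376 and 11894 (-1.17). The other pair past 2-fold, named after their values were seen, were the amino acid synthesis genes *Phgdh* (23 and 8 counts, -1.08) and *Asns* (59 and 102, 1.04). *Atf4* and *Cebpb*, which encode ATF4 and a C/EBP protein, had log2 ratios of -0.39 and -0.66, which turned to 0.32 and 0.10 with the GC and length trends removed. In that setting the median of the list was -0.15 and 1 gene, *Atf3* (-1.45), lay past 2-fold. *Trib3* was then at -0.85 and *Atf5* at -0.29.

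PPARα and its target genes did not lie on 1 side. Of 15 genes, 2 were more than 2-fold higher and none lower (13.3%, against 31.0% of all genes in either direction and 22.5% higher). The median was -0.081, or -0.21 with the GC and length trends removed. *Fgf1*, a paracrine growth factor, had 1708 counts with AAV-GFP and 4658 with AAV-Wee1-AS (log2 ratio 1.72), and *Ppargc1a*, a coactivator of oxidative metabolism, had 103 and 216 (1.33). With the GC and length trends removed *Fgf1* was at 0.64 and *Ppargc1a* turned to -0.51. *Plin2*, which encodes a protein of the lipid droplet coat and was among the most abundant of the list, had 77555 and 37451 counts (-0.77, or -0.35 with the trends removed).

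Of 15 genes of ChREBP, SREBP1c and their targets, 1 was more than 2-fold higher and 1 lower (13.3% against 31.0% of all genes), and the median was -0.44, or -0.0055 with the GC and length trends removed. *Elovl6*, a fatty acid elongase, had 1506 and 5785 counts (log2 ratio 2.22, 2.14 to 2.30, and 1.03 with the trends removed). The lower gene, named after its value was seen, was *Pnpla3*, a lipid droplet protein, with 137 and 50 counts (-1.15, or -0.77 with the trends removed). The most abundant were the lipogenic gene *Thrsp* (0.67) and the fructose-metabolism genes *Khk* (-0.76) and *Tkfc* (-0.57). With the trends removed these were at 1.15, 0.11 and -0.016.

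Among 25 other secreted liver factors, 6 were more than 2-fold higher and 3 more than 2-fold lower with AAV-Wee1-AS, and the median was -0.24, or 0.26 with the GC and length trends removed. The shares were 24% higher, 12% lower and 36% in all, near the 22.5%, 8.43% and 31.0% of all genes. *Fgl1*, a fibrinogen-like hepatokine, had 2351 counts with AAV-GFP and 17536 with AAV-Wee1-AS (log2 ratio 3.18, 3.11 to 3.24). *Selenop*, the selenium transport protein, had 111505 and 198791 (1.11). *Dpp4*, a peptidase shed into plasma, and *Hgf*, the ligand of MET, had log2 ratios of 1.55 and 1.53. With the GC and length trends removed, *Fgl1* was at 2.16 and *Enho*, the gene of the secreted peptide adropin, named after its values were seen, at 2.07 (1.25 before), but *Selenop*, *Dpp4* and *Hgf* were at 0.38, 0.15 and 0.32. On the other side, *Gpnmb*, a glycoprotein with a shed ectodomain, had 831 and 62 counts (-3.43, -3.86 to -3.09). Another lower gene, named after its value was seen, was *Igfbp1*, an IGF-binding protein (1832 and 697 counts, -1.11, or -0.81 with the trends removed). *Hamp*, the iron hormone hepcidin, had 16845 and 13719 counts and a ratio close to even (-0.018), or 0.54 with the trends removed.

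**Figure D5:**
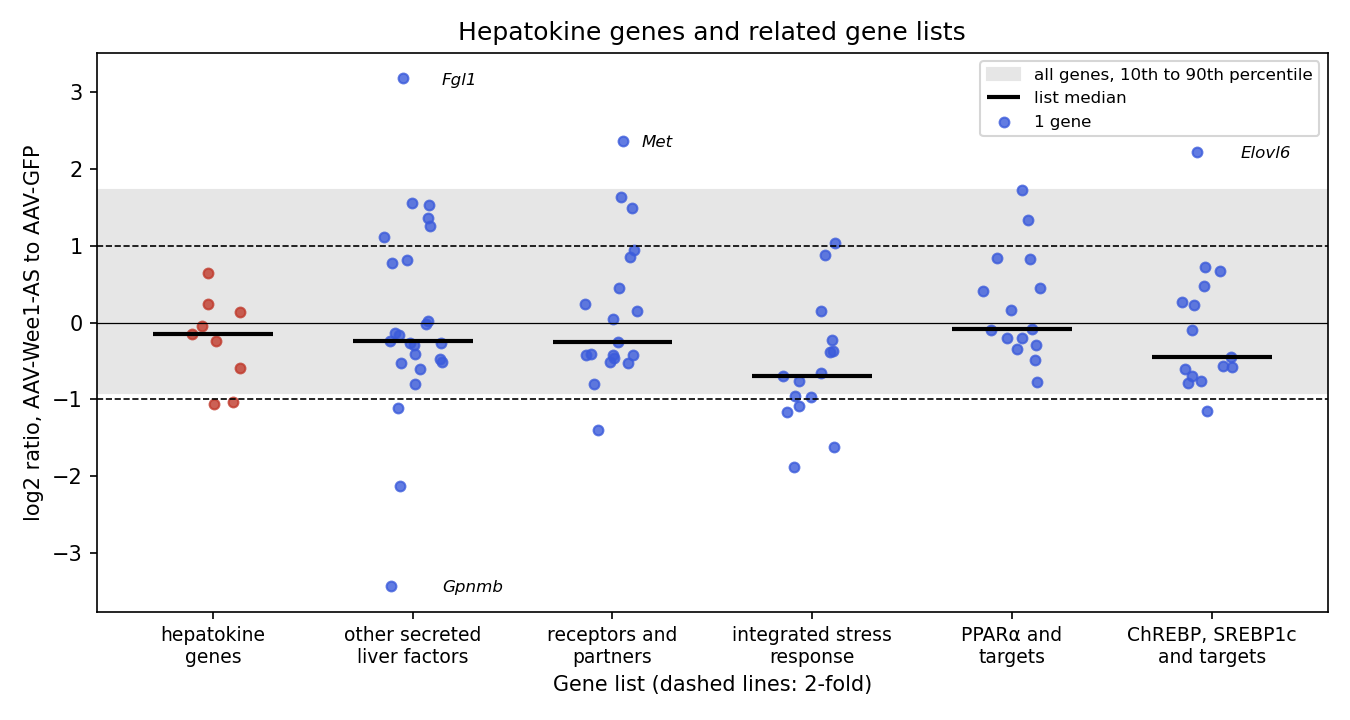
Log2 ratio between the libraries (AAV-Wee1-AS over AAV-GFP) for each gene of the hepatokine set and of 5 related lists, with the list median (bar) and the 10th to 90th percentile of all genes (band, -0.92 to 1.72). No trend is removed in this figure. The stress response list then has the lowest median, -0.69, and *Fgl1* (3.18) and *Gpnmb* (-3.43) lie farthest from 0. With the GC and length trends removed, the PPARα list has the lowest median, -0.21, against -0.15 for the stress response list.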

How the data were processed

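RNA from liver was made into stranded poly(A) libraries and sequenced as paired ends, 1 library per group. The authors deposited a table of 129299 transcripts with an estimated count, an FPKM value and a TPM value for each library, and 0 columns of other samples were used. The submitters' processing notes name Trimmomatic 0.38, HISAT2 2.1.0, SAMtools 1.9, StringTie 2.1.3b and build mm10, without roles or order. The estimated counts were whole numbers as deposited and mostly equal FPKM times length times a constant, rounded up, so they may be derived from coverage rather than tallied and the intervals are approximate. Whether 1 count is a read or a read pair was not given in the sources used here, so intervals were also computed from counts divided by 2, an alternative chosen after seeing the data. PCR copies are not independent molecules, so all intervals cover counting error only.

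Counts were summed per symbol over all transcripts (45777 genes; 19 transcripts for the 9 members) and scaled with TMM factors (1.03 for AAV-GFP, 0.976 for AAV-Wee1-AS; edgeR 4.0.16 in R 4.3.3). Log2 ratios used a prior count of 2. Exact intervals came from scipy 1.17.1. The fit of trends with GC content and length used lowess (span 0.3, statsmodels 0.14.6), with sequences of the mouse reference. For edgeR's quasi-likelihood test 1 library per group leaves no residual degrees of freedom, so it was not run. The scripts were tested on simulated counts. Promoters came from the RefSeq table, which matched 8 of 9 members; *Angptl4* was not matched. Of 10 hepatocyte markers 9 were matched by symbol.

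The members and all lists were chosen with earlier results of these data known. Named from each list were its 3 most abundant genes by mean TPM and up to 6 genes whose interval lay wholly past 2-fold, and any paralog or overlapping gene of a member; some genes that this rule names are not reported here. Alternatives were other scalings, prior counts, units, transcript choices, filters and trend removal.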

Additional observations from a re-analysis of the deposited data

How the results depend on the processing

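No paired analysis was possible because each group is 1 library, and for the same reason no replicate could be left out. The 9 genes had 99 ratios under 11 alternatives, of which 48 moved by less than their counting interval, 47 by more, and 4, of genes whose interval left out a ratio of 1, changed sign. These 4 were of *Ahsg* (0.15 with the length trend removed, 0.36 with GC and length removed) and *Rbp4* (0.11 and 0.49). *Angptl8*, whose interval spans 0, also went from below to above 0 under these settings (0.38 and 0.92). *Fgf21* moved to -0.65 and -0.37 under these settings. *Gdf15* moved to -0.74 and -0.13, and to -0.50 with its most abundant transcript alone. Hepatokine genes past 2-fold numbered 2 in the reported analysis, 1 each with TPM, curated transcripts, the most abundant transcript and length removed, and 0 with FPKM and with GC and length removed. With length removed the 1 gene was *Lect2* (1.07). Genes past 2-fold in the whole table numbered 4909 as reported, 2046 with TPM, 1336 with FPKM and 2215 with GC and length removed. The last setting split them into 1033 higher and 1182 lower, against 3572 and 1337. Upper quartile scaling moved the median of all genes from -0.0020 to -0.13 and *Fetub* to 0.0096.

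Counts past 2-fold in the related lists moved as follows. Beside them, the share of all genes past 2-fold was 12.9% with TPM, 8.43% with FPKM, 33.9% with curated transcripts, 36.7% with the most abundant transcript, 28.8% with length removed and 14.8% with GC and length removed. Other secreted factors went from 9 to 4 with GC and length removed. Receptors went from 4 to 2 with FPKM and to 8 with the most abundant transcript. Stress response genes went from 5 to 3 with TPM, FPKM and length removed, and to 1 with GC and length removed. PPARα genes went from 2 to 1 with TPM, FPKM and length removed, to 4 with curated transcripts and to 0 with GC and length removed. ChREBP and SREBP1c genes went from 2 to 1 with TPM and FPKM and to 5 with length removed. TPM and FPKM ratios used a pseudocount of 1, which draws low genes toward 0. Otherwise the cause was not tested. Counting error limits *Fgf21* most, with an interval of -1.49 to -0.67 from counts divided by 2. In that alternative the interval still left out a ratio of 1 for 8 of 9 genes.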
